A study of Mus musculus with 4 samples.

Results

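The 10 genes described here are Trp53, the mouse gene of the p53 transcription factor, its inhibitors Mdm2 and Mdm4, and 7 genes known as p53 targets: Ccng1, Trp53inp1, Sesn1, Gadd45a, Gadd45b, Btg2 and Zmat3. They were taken by symbol from a table of 23359 rows, 1 row per gene, and all 10 were found. RNA came from liver tumour-initiating stem-like cells of C57BL/6 mice, grown in serum with epidermal growth factor and dexamethasone, and ribosomal RNA was removed before sequencing. The first of the 4 cultures received both ATRA (all-trans retinoic acid, the ligand of the retinoic acid receptors) and SAHA (suberoylanilide hydroxamic acid, which blocks histone deacetylases), the second SAHA at 0.5 µg/ml, the third ATRA at 5 µg/ml and the fourth vehicle. Compounds were applied for 16 hours, and the combination used the same doses. Each group had 1 library, so no difference below has a replicate error or a test. The labels do not state how many mice or tumours the cells came from, whether p53 was intact in them, or how long the vehicle culture was kept.

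p53 is a transcription factor that is held at a low level by Mdm2, a ubiquitin ligase that marks it for destruction, and by Mdm4, which binds and masks its activation domain. DNA damage and other stress release p53 from both, and it then switches on genes of cell cycle arrest, DNA repair, apoptosis and antioxidant defence, among them Mdm2 itself, which closes a feedback loop. Much of this control acts on the protein, so transcript levels describe only part of the pathway. Several of the target genes also answer to other signals: Gadd45a, Gadd45b and Btg2 are known to be induced by growth factor and stress signalling without p53.

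RefSeq promoters (GRCm38.p6, the assembly also named mm10) were matched by symbol for 8 of the 10 genes, in 10 windows, and not for Trp53inp1 and Zmat3. Stretches of them are shown because the genes share a known regulator. A decamer that fits the p53 half-site consensus lay within the 250 bases before the start in 5 of these 8 genes and in 5 of the 10 windows. It was present in 7.13% of all 32851 promoter windows of that length. The 5 matches (chr11:69580274-69580303 plus strand, chr10:117710925-117710954 minus strand, chr11:40755452-40755481 minus strand, chr10:41887256-41887285 plus strand and chr6:67037428-67037457 minus strand, in the order shown) are printed 5′ to 3′ on the strand of each gene, with the decamer in capitals.
Trp53: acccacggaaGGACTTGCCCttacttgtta
Mdm2: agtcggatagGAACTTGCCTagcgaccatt
Ccng1: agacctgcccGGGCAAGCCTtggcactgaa
Sesn1: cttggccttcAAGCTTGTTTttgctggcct
Gadd45a: ggttggctgaGGGCTAGCCCcatatctccg
The decamers begin 75 bases before the RefSeq start of Trp53, 186 before that of Mdm2 and 185 before that of Ccng1. They begin 173 before a downstream start of Sesn1 and 40 before the RefSeq start of Gadd45a. In GENCODE M21 the Gadd45a gene reaches to 67037457, so its stretch above lies inside the annotated gene and not upstream of it. The Sesn1 stretch likewise lies inside the GENCODE span of that gene (41809935 to 41908424). A letter match is a description of sequence and not a measured binding site, and the 10 genes were not chosen from these sequences.

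Trp53 lies head to head with Wrap53, the gene of a telomerase-associated protein that is named for its antisense position to Trp53. In GENCODE M21 the 2 genes are 103 bases apart on chromosome 11, with Wrap53 on the minus strand and Trp53 on the plus strand (69580359 to 69591873). The stretch between them, chr11:69580256-69580358, is printed on the plus strand because the levels of the 2 genes lay on opposite sides of vehicle with SAHA. Capitals mark the p53 half-site decamer and a CCAAT box read on the other strand.
Trp53: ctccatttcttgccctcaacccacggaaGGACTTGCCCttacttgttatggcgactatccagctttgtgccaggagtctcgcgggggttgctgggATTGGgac

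Gadd45a and Gadd45b encode related small stress-response proteins that bind and activate the kinase MEKK4. The order of their levels was reversed in the SAHA library, so the bases upstream of each are printed too, outside annotated coding-gene exons. The Gadd45a stretch (chr6:67037458-67037657, minus strand) covers 250 to 51 bases before the RefSeq start, and the Gadd45b stretch (chr10:80929841-80930072, plus strand) covers 250 to 19.
Gadd45a: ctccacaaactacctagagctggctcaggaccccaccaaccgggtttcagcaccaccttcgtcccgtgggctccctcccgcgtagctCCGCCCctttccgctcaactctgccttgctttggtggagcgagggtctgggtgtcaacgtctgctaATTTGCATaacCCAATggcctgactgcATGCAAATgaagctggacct
Gadd45b: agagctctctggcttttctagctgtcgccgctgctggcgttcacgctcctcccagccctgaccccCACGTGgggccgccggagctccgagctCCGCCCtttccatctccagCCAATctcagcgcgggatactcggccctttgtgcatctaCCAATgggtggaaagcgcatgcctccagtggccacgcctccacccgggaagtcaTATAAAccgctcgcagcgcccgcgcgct
Capitals mark matches to the motifs, each searched on both strands, so that a match on the other strand appears as its reverse complement. The motifs were the CCAAT box, the GC box (GGGCGG), the TATA box (TATAAA), the E-box (CACGTG), the octamer (ATGCAAAT), the cyclic AMP response element (TGACGTCA), the AP-1 site (TGANTCA), the ATF4 composite site (TGATGNAA) and the p53 half-site. In the printed stretches no match overlapped another. The octamer ATGCAAAT stood in the Gadd45a window at 2 places and was present in 1.60% of all windows. CCAAT was in 33.8% of all windows and in 7 of the 8 genes. GGGCGG was in 32.7% of all windows and in 5 of the 8 genes. TATAAA was in 12.4% of all windows and CACGTG in 6.02%, and Gadd45b held both. TGACGTCA (1.55% of all windows) matched in Btg2 and TGANTCA (6.75%) in Mdm4, while TGATGNAA (3.45%) matched in 0 of the 8.

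Levels are in FPKM (mapped fragments scaled to transcript length and library size), a scale set per length so that genes can be compared. Totals over all rows were 309001 FPKM with the combination, 258214 with SAHA, 304329 with ATRA and 266680 with vehicle. The 10 highest rows held 59.5% of the total in the SAHA library and 46.4% to 47.2% in the others, so the SAHA library stands apart in composition. Depth was estimated from the smallest step in the values of low genes: 1 FPKM over 1 kilobase stood for about 95.3 to 103 fragments. As to cell identity, 0 of 6 hepatocyte markers, 2 of 4 bile duct markers, 3 of 5 mesenchymal markers and 3 of 4 tumour-initiating cell markers reached a mean of 1 FPKM. Of 3 macrophage markers 1 did (Cd68), and 0 of 3 endothelial and 0 of 2 lymphocyte markers did, while Prom1, a tumour-initiating cell marker, was listed at 0 in all 3 treated libraries. Summed over their lists, the mesenchymal markers were at 366 FPKM with the combination, 322 with SAHA, 464 with ATRA and 603 with vehicle, and the macrophage markers at 4.29, 5.25, 2.44 and 1.93. Each sum rests mostly on a single gene: Vim, at 362, 319, 432 and 562 FPKM, and Cd68, at 4.26, 5.20, 2.41 and 1.89. The 4 tumour-initiating cell markers summed to 25.4, 34.6, 101 and 141 FPKM in the same libraries, so they were low where SAHA was present, and their part in the results below was not tested. In such bulk RNA, fewer cells of a type and less RNA per cell cannot be told apart.

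A difference is given on the scale of log2(FPKM + 1). A gene is called higher or lower when it is 1 or more away from 0, here named the 2-fold mark. A low gene can differ by more than 2-fold in FPKM and stay under this mark. The scale understates differences of low genes, so ratios of the FPKM values are given as folds beside it. Counts of called genes cover the 8616 genes that averaged 1 FPKM or more over the 4 libraries, and 8 of the 10 genes are among them. Zmat3 (mean 0.744 FPKM) and Sesn1 (0.972) fall under that filter and are given by their values. Gene positions are those of the table (mm10) unless GENCODE is named.

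**Figure D1:**
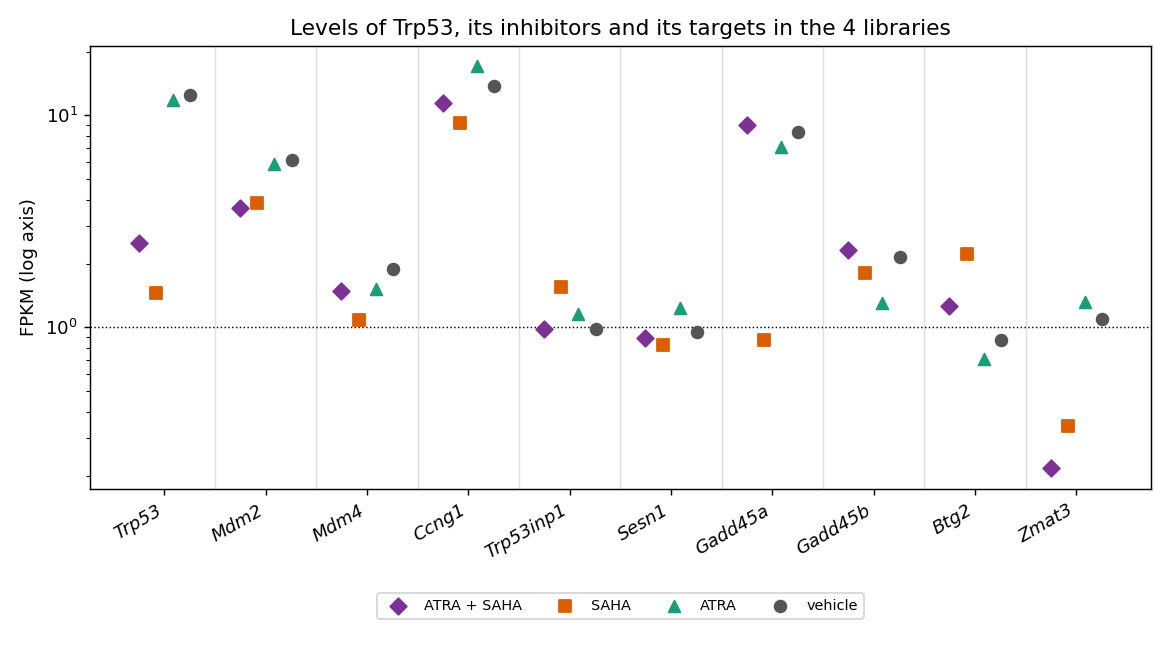
FPKM of each of the 10 genes on a log axis in the ATRA plus SAHA, SAHA, ATRA and vehicle libraries, 1 point per library, with a dotted line at 1 FPKM. Trp53 is low in both libraries with SAHA, whereas Gadd45a is low with SAHA alone and stands at 9.06 FPKM with the combination.

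Trp53 itself was lower wherever SAHA was present. It was at 2.49 FPKM with the combination, 1.46 with SAHA, 11.8 with ATRA and 12.5 with vehicle. The 2 libraries with SAHA were low and the 2 without it were high. Trp53 was 8.56-fold lower with SAHA than with vehicle, a log2 difference of -2.46, and 158 of the 8616 counted genes lay further down. Against vehicle the combination was 5.02-fold lower (-1.95), and against ATRA 4.72-fold lower (-1.87). ATRA alone differed from vehicle by -0.08. The combination lay 1.71-fold above SAHA (0.51), but at 0.07 when libraries were rescaled to equal totals without small RNAs and the 10 highest rows. By the depth estimate, the SAHA value stood for about 265 fragments and the vehicle value for about 2256. Of the other 9 genes, Gadd45a was the only one called in the comparison of SAHA with vehicle on this scale.

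Wrap53, on the other side of the printed 103 bases, was higher in the libraries with SAHA, where Trp53 was lower. It was at 2.78 FPKM with the combination, 1.99 with SAHA, 1.27 with ATRA and 1.13 with vehicle. By FPKM it was thus 2.47-fold and 1.76-fold above vehicle in the libraries with SAHA. On the log2(FPKM + 1) scale these differences were 0.83 and 0.49, so neither was called. The level of Wrap53 relative to Trp53 was 1.11 with the combination, 1.36 with SAHA, 0.108 with ATRA and 0.0901 with vehicle. The loci of the 2 rows do not overlap in the table. The other p53 family genes, Trp63 and Trp73, were nearly silent, with Trp63 at 0.00184 to 0.0251 FPKM and Trp73 at 0.0103 to 0.0191 FPKM over the 4 libraries.

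Of the inhibitors, Mdm2 was at 3.65 FPKM with the combination, 3.85 with SAHA, 5.88 with ATRA and 6.19 with vehicle. It was therefore lower in both libraries with SAHA, as Trp53 was, but by less: 1.70-fold with the combination (-0.63) and 1.61-fold with SAHA (-0.57). Neither difference reached the 2-fold mark, and after the rescaling the SAHA difference was -0.19. The gene lies on chromosome 10 (117688905 to 117710716, minus strand). Mdm4 was at 1.48, 1.08, 1.51 and 1.89 FPKM in the combination, SAHA, ATRA and vehicle libraries, a range of 1.75-fold, and also stayed under the mark in every comparison. Mdm4 lies on chromosome 1 (132989845 to 133025348, minus strand). Since Trp53 differed more than its inhibitors, their relative levels changed: Mdm2 stood at 1.46 times Trp53 with the combination, 2.63 times with SAHA, 0.499 times with ATRA and 0.494 times with vehicle. Mdm4 stood at 0.594, 0.739, 0.128 and 0.151 times Trp53 in the same libraries. The 2 libraries with SAHA were high in both ratios, which share Trp53 as the divisor. Ccng1 relative to Trp53 was split likewise, at 4.59 with the combination, 6.31 with SAHA, 1.45 with ATRA and 1.09 with vehicle. How many other genes give this split was not counted.

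Among the targets, Gadd45a (chromosome 6, 67035096 to 67037457, minus strand in GENCODE M21) had the widest range. It was at 9.06 FPKM with the combination, 0.876 with SAHA, 7.12 with ATRA and 8.38 with vehicle. The SAHA library was low and the other 3 lay close together. Gadd45a was 9.57-fold lower with SAHA than with vehicle (-2.32), whereas the combination differed from vehicle by 0.10. Between the combination and SAHA the difference was 10.3-fold (2.42), and 45 of the 8616 counted genes lay higher. The SAHA value rests on about 104 fragments. E230016M11Rik, an antisense row that shares the Gadd45a locus, was at 0.353 FPKM with the combination, 0.0408 with SAHA, 0.239 with ATRA and 0.225 with vehicle. The strand setting of the counting is not given, so reads of the 2 rows cannot be told apart.

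The paralog Gadd45b (chromosome 10, 80930091 to 80932204, plus strand) did not have this pattern. It was at 2.33 FPKM with the combination, 1.81 with SAHA, 1.31 with ATRA and 2.14 with vehicle, and ATRA was the lowest library (-0.44 from vehicle). The level of Gadd45a relative to Gadd45b was 3.88 with the combination, 0.483 with SAHA, 5.42 with ATRA and 3.91 with vehicle. SAHA was the only library in which Gadd45a was the lower of the pair. Gadd45g, the third paralog, was at 3.53 FPKM with the combination, 1.07 with SAHA, 1.20 with ATRA and 1.28 with vehicle. It was high in the combination, where it lay 1.13 above SAHA and 0.99 above vehicle on the log2 scale, the first of which was 0.98 after median centring and 0.71 after the rescaling.

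Ccng1 (chromosome 11, 40748552 to 40755286, minus strand), which encodes cyclin G1, a regulator of p53 through Mdm2, had the highest mean of the 10 genes. It was at 11.4 FPKM with the combination, 9.23 with SAHA, 17.1 with ATRA and 13.7 with vehicle. ATRA was the highest library and SAHA the lowest, and the differences from vehicle were -0.24, -0.52 and 0.30 for the combination, SAHA and ATRA. After the rescaling the first 2 were -0.43 and -0.10. Its paralog Ccng2 was at 2.13, 2.65, 5.31 and 3.13 FPKM in the combination, SAHA, ATRA and vehicle libraries. Ccng2 was likewise highest with ATRA and lay 1.01 lower with the combination than with ATRA.

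Btg2 (chromosome 1, 134074865 to 134079155, minus strand), an antiproliferative gene of the BTG and Tob family, was highest with SAHA alone. It was at 1.26 FPKM with the combination, 2.21 with SAHA, 0.706 with ATRA and 0.874 with vehicle. The combination lay 0.27 above vehicle on the log2 scale, or 0.16 after the rescaling. SAHA was 2.53-fold above vehicle by FPKM but 0.78 on the log2(FPKM + 1) scale, so it was not called. With a pseudocount of 0.1 FPKM the difference was 1.25, and with libraries rescaled without small RNAs and the 10 highest rows it was 1.11, both past the mark. Btg1, its closest paralog, was at 5.91 FPKM with the combination, 5.59 with SAHA, 3.97 with ATRA and 5.05 with vehicle.

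Zmat3 (chromosome 3, 32334794 to 32367438, minus strand), the gene of a zinc finger protein that binds RNA, was low wherever SAHA was present. It was at 0.216 FPKM with the combination, 0.342 with SAHA, 1.32 with ATRA and 1.10 with vehicle. The libraries with and without SAHA did not overlap, but each group had 1 library. The share of all genes with such an order was not counted. The combination was 5.07-fold and SAHA 3.21-fold below vehicle by FPKM, which the log2(FPKM + 1) scale gave as -0.79 and -0.64. With a pseudocount of 0.1 FPKM the values were -1.92 and -1.44. Taken over the longest transcript of Zmat3 (7797 bases), the combination and SAHA levels stood for about 173 and 259 fragments, against about 826 with vehicle. With a shorter transcript these numbers would be lower. The row 4930429B21Rik, which shares its locus, was at 0.0494 to 0.103 FPKM over the 4 libraries.

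Trp53inp1, whose product promotes p53-dependent stress responses and autophagy, and Sesn1, a sestrin that restrains mTORC1 in response to p53, differed little. Trp53inp1 was at 0.978 FPKM with the combination, 1.55 with SAHA, 1.16 with ATRA and 0.979 with vehicle. Sesn1 was at 0.889, 0.823, 1.23 and 0.950 FPKM in the combination, SAHA, ATRA and vehicle libraries. SAHA alone was the highest library for Trp53inp1 and the lowest for Sesn1, and both genes stayed within a range of 1.58-fold. After the rescaling Sesn1 lay 0.13 above vehicle with SAHA, in place of -0.10. Trp53inp1 lies on chromosome 4 (11156441 to 11174377, plus strand) and Sesn1 on chromosome 10 (41810574 to 41908436, plus strand). The sestrin paralogs differed from Sesn1. Sesn2 was at 1.92, 1.17, 2.99 and 2.44 FPKM in the same libraries. Sesn3 was at 1.47 FPKM with the combination and 0.939 with SAHA, against 0.0175 with ATRA and 0.0219 with vehicle. Thus Sesn3, which was near the bottom of the scale without SAHA, was 67.3-fold above vehicle with the combination and 42.9-fold with SAHA by FPKM (1.27 and 0.92 on the log2 scale, although its mean lies under the filter).

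**Figure D2:**
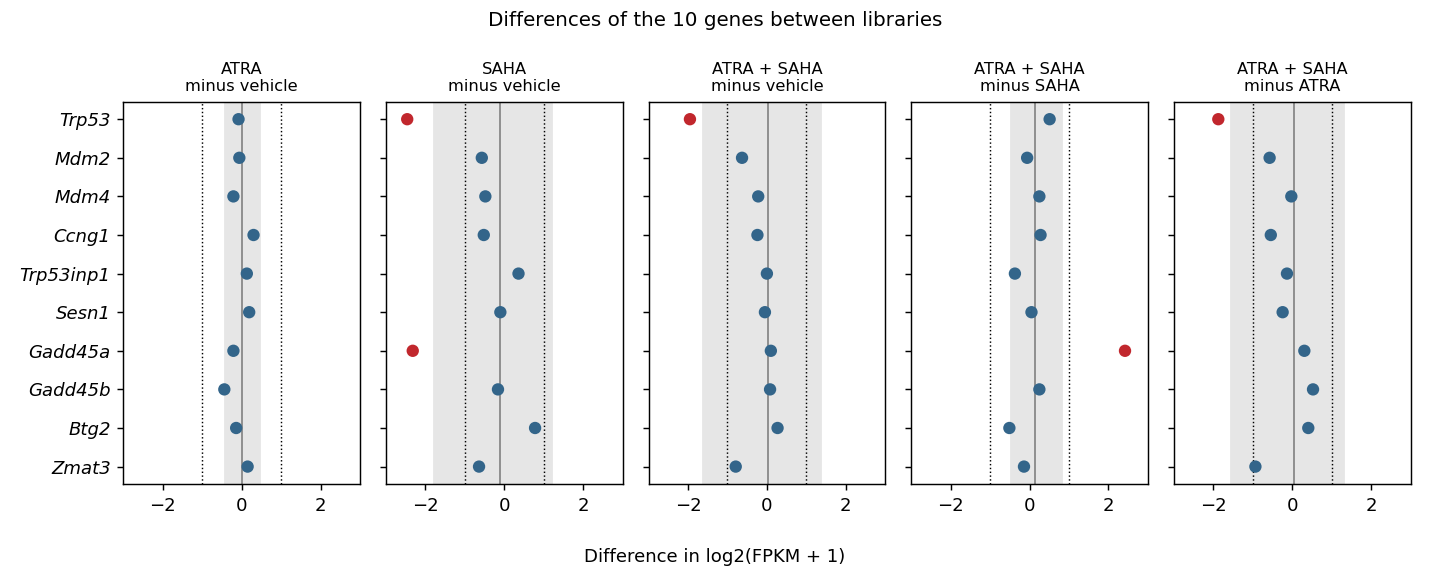
Difference in log2(FPKM + 1) of the 10 genes in the 5 comparisons, 1 point per gene; red points are at 1 or more from 0 (dotted lines), the grey band spans the 5th to 95th percentile of all 8616 counted genes and the grey line is their median. Trp53 lies outside the band in the 3 comparisons that add SAHA, and Gadd45a in SAHA against vehicle and in the combination against SAHA; Gadd45b with ATRA and Btg2 in the combination against SAHA lie just outside it.

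Taken by comparison, few of the 10 genes passed the 2-fold mark on the log2(FPKM + 1) scale. Of the 8 counted members, 0 were higher and 2 lower with SAHA than with vehicle (Trp53 and Gadd45a), where 7.88% of all counted genes were higher and 16.0% lower. With median-centred libraries 881 counted genes were higher and 1157 lower, against 679 and 1381 without centring, so the higher share of calls moved to 43.2%, against 33.0%. When libraries were rescaled without small RNAs and the 10 highest rows, that share was 61.7%. The members' median difference was -0.50, beside -0.12 over all counted genes. With ATRA 0 were higher and 0 lower, beside 0.917% and 1.20% of all counted genes, and the members' median was -0.11. With the combination against vehicle 0 were higher and 1 lower (Trp53), beside 11.1% and 12.6%. With the combination against ATRA 0 were higher and 1 lower (Trp53), beside 10.5% and 11.9%. With the combination against SAHA 1 was higher (Gadd45a) and 0 lower, beside 3.04% and 0.929%. With 8 genes these counts are small and are not read against the background as a result, and the comparisons share libraries: all 3 with vehicle rest on the same vehicle library.

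The combination was then set against the sum of the single compounds on the log2 scale. Gadd45a departed from that sum by 2.63: the sum was -2.53 and the combination measured 0.10. Of the 8 counted members 1 departed upward by 1 or more and 0 downward, beside 4.69% and 1.73% of all counted genes, and 48 counted genes departed further upward than Gadd45a. Trp53 departed by 0.59 and Gadd45b by 0.69, and Mdm2 (0.00) and Ccng1 (-0.02) lay at the sum. Trp53inp1 departed by -0.49 and Btg2 by -0.37. Thus the genes that shared a low value with SAHA parted in the combination: Trp53 was still low, and Gadd45a was at the vehicle level.

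**Figure D3:**
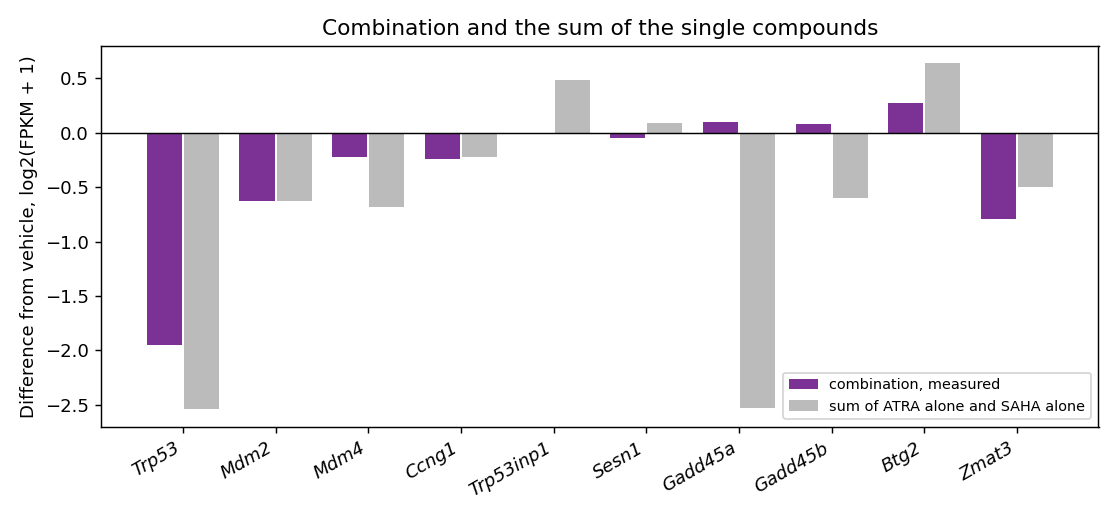
Bars give the difference from vehicle in log2(FPKM + 1) for the combination as measured (purple) and for the sum of ATRA alone and SAHA alone (grey), per gene. The bars differ most for Gadd45a, at 0.10 and -2.53, and stand side by side for Mdm2.

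Other genes of the pathway were read from 11 lists drawn up from general knowledge of p53. Of 159 symbols 158 matched a row, and 123 of these were counted. With ATRA 0 of the 123 were called in either direction. With SAHA 12 were higher and 32 lower, and with the combination 15 were higher and 11 lower, each against vehicle. The combination's counts are 12.2% and 8.94% of the 123, beside 11.1% and 12.6% of all counted genes. Cell cycle genes known to be repressed through p53, p21 and the DREAM complex supplied 13 of the 32. In the other 105 genes, 11.4% were higher and 18.1% lower with SAHA, beside 7.88% and 16.0% of all counted genes. These shares are 12 higher and 19 lower. The 19 still include mitosis genes from other lists, Ckap2 (-1.32), Plk1 (-1.06) and Aurka (-1.02).

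With SAHA the list medians were -0.27 for arrest, -0.42 for apoptosis, -0.11 for metabolism, 0.02 for repair, -0.22 for feedback and other, and -0.38 for secreted and membrane targets, beside -0.12 over all counted genes. Those of kinases, cofactors and paralogs were -0.36, -0.46 and 0.06. With the combination the 9 medians lay between -0.59 (secreted and membrane targets) and 0.27 (repair targets), beside 0.04 over all counted genes. The lists are short, and their counts of called genes below stand beside 7.88% higher and 16.0% lower of all counted genes with SAHA. For the combination against vehicle those shares were 11.1% and 12.6%.

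Arrest and apoptosis targets had no common direction. Cdkn1a, the p21 gene and the best known p53 target, was at 3.58 FPKM with the combination, 3.95 with SAHA, 3.15 with ATRA and 3.35 with vehicle. Cdkn1a thus varied little while Trp53 varied 8.56-fold. Of 10 counted arrest targets 2 were higher and 2 lower with SAHA. Plk2, a stress-responsive kinase gene, was 2.50-fold above vehicle with SAHA and 4.23-fold with the combination (19.5 FPKM against 4.60). Of 13 counted apoptosis targets 1 was higher and 3 lower with SAHA. The higher one was Triap1, an inhibitor of apoptosis (3.73 FPKM against 1.35), and the lower ones were Phlda3, an inhibitor of Akt (2.19 against 7.57), the receptor gene Eda2r (0.398 against 2.45) and the nuclease gene Aen (1.74 against 4.50). The log2 differences of these 3 were -1.43, -1.30 and -1.01, and the last was -0.89 after median centring and -0.70 after the rescaling. The effectors Bax, Bbc3 (PUMA) and Pmaip1 (NOXA), which drive mitochondrial apoptosis, differed from vehicle by -0.50, -0.32 and -0.42 with SAHA and by 0.00, -0.30 and 0.37 with the combination. None of these 3 passed the mark. Siva1, an apoptosis-inducing factor, was at 47.5 FPKM with the combination, 20.2 with SAHA, 15.5 with ATRA and 13.0 with vehicle, and so was high in the combination (1.79).

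Metabolic targets held large differences in both directions. Of 15 counted, 4 were higher and 3 lower with SAHA, and 5 were higher and 2 lower with the combination. Pmm1, a phosphomannomutase gene, was at 12.6 FPKM with the combination and 12.0 with SAHA, against 1.96 with vehicle. Aldh4a1, a proline catabolism gene, was 10.8-fold above vehicle with the combination and 11.8-fold with SAHA. Tsc2, an mTORC1 inhibitor whose locus is shared with Pkd1 in the table, was 4.94-fold and 5.36-fold above vehicle. Gpx1, a glutathione peroxidase gene, was at 16.4 FPKM with the combination and 11.9 with SAHA, against 58.9 with vehicle (-1.78 and -2.22). Within this list, then, the genes went in opposite directions in the same libraries.

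Among 7 counted repair targets 1 was higher with SAHA and 1 with the combination: Polh, a translesion polymerase, in both (9.39 and 13.1 FPKM, against 3.94 with vehicle). Of 8 counted feedback and other targets 0 were higher and 1 lower with SAHA, the noncoding Pvt1 (3.25 FPKM against 12.8), a row that shares its locus with H2afy3. With the combination Ccnk, a cyclin gene, was the 1 called higher (1.12, or 0.94 after the rescaling), and Ppm1d, the phosphatase that dampens p53 signalling, was at 2.55, 2.93, 1.97 and 2.32 FPKM in the combination, SAHA, ATRA and vehicle libraries. Of 9 counted secreted and membrane targets 2 were higher and 3 lower with SAHA. Kitl, the KIT ligand gene, was at 1.40 FPKM with the combination, 1.66 with SAHA, 3.84 with ATRA and 4.68 with vehicle, and so was low where SAHA was present. The SAHA difference of Kitl was -1.09, against -0.97 after median centring and -0.79 after the rescaling.

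Regulators of p53 included 2 Polycomb genes that were lower in both libraries with SAHA. Of 25 counted cofactors and regulators 1 was higher and 5 lower with SAHA, and 1 was higher and 4 lower with the combination. Over all counted genes 7.88% were higher and 16.0% lower with SAHA, and 11.1% and 12.6% with the combination. With 25 genes the counts are not read against these shares as a result. Rnf2 and Bmi1, which encode subunits of the Polycomb repressive complex 1, were at 1.33 and 1.23 FPKM with SAHA, against 8.48 and 5.32 with vehicle, and their log2 differences with the combination were -1.56 and -1.79. Kat2b, an acetyltransferase gene that acts on p53, was at 0.306 FPKM with SAHA, against 2.38 with vehicle. Ppp1r13b, which encodes the p53 cofactor ASPP1, was the 1 higher, at 3.08 FPKM with SAHA against 0.773 with vehicle. Cdkn2a, whose p19Arf product inhibits Mdm2, was listed at 0 with vehicle and stood at 0.0133, 0.0129 and 0.0280 FPKM with the combination, SAHA and ATRA. Of 9 counted kinases acting on p53, 0 were higher and 2 lower with SAHA, Aurka (-1.02) and Plk1 (-1.06), which slipped just under the mark at -0.90 and -0.93 after median centring and lay at -0.69 and -0.78 after the rescaling. Of 10 counted paralogs 1 was higher with SAHA, Trp53inp2 (3.03 FPKM against 0.651), and 1 with the combination, Zmat5 (6.13 against 1.65).

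The cell cycle genes repressed through p53 formed the list with the largest share of calls. Of 18 counted, 13 were lower and 0 higher with SAHA (12 and 11 lower after median centring and rescaling), with a median of -1.36, against 0 lower and 0 higher with the combination and a median of -0.25. Ccnb1, the cyclin B1 gene, was at 9.21 FPKM with the combination, 2.81 with SAHA, 11.2 with ATRA and 9.93 with vehicle, and Cdk1, its kinase partner, was at 4.30, 1.56, 7.20 and 6.46 FPKM. Both were low with SAHA alone. In the comparisons with vehicle, calls in this list were thus confined to SAHA alone, although with the combination only 5 of the 18 lay above 0. With a pseudocount of 0.1 FPKM, 1 was higher and 1 lower with the combination than with vehicle. Against ATRA the combination had 1 lower, Mad2l1 (-1.09), beside 11.9% of all counted genes. The relation of the genes of this list to the Trp53 level was not tested. Between the combination and SAHA 11 of the 18 were higher, beside 3.04% of all counted genes. However, 7 were higher after median centring and 0 with libraries rescaled without small RNAs and the 10 highest rows. Over all counted genes, the median of that comparison was 0.14 as deposited and -0.33 after the rescaling.

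**Figure D4:**
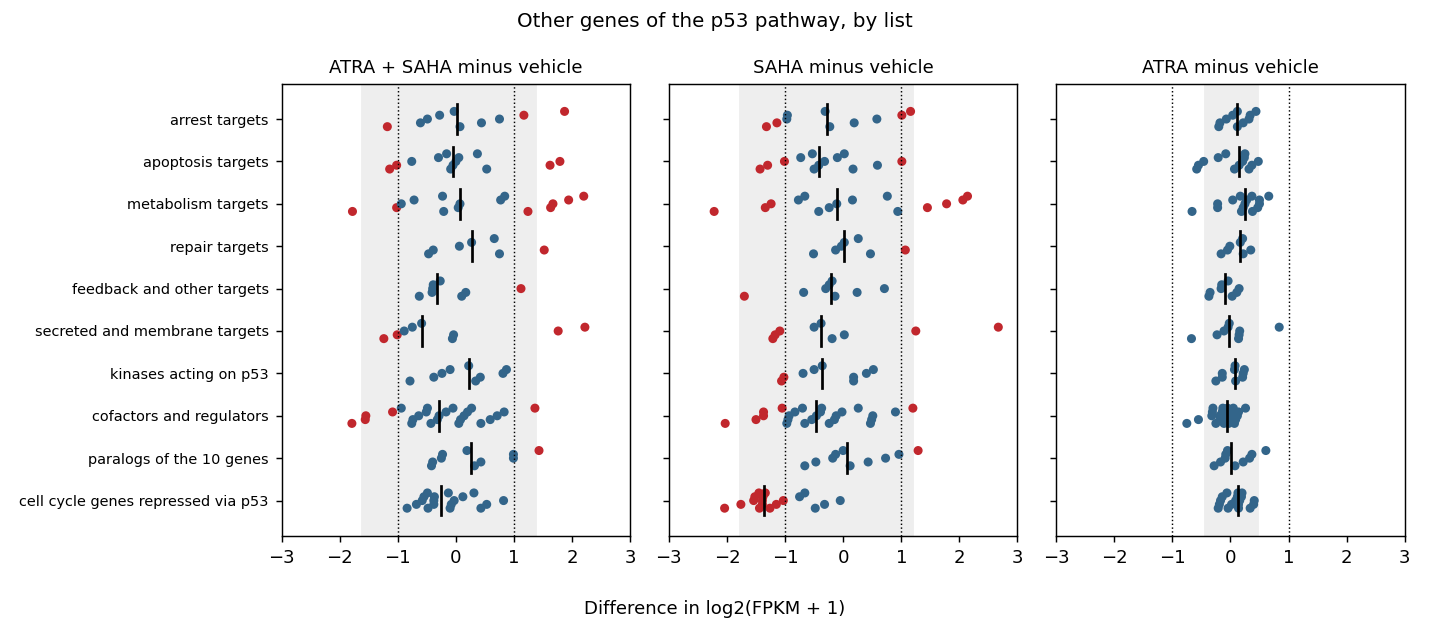
Difference in log2(FPKM + 1) from vehicle for the counted genes of 10 lists, with the combination, SAHA and ATRA in the left, middle and right panels; each point is a gene, red at 1 or more from 0, the black bar is the list's median and the grey band spans the 5th to 95th percentile of all counted genes. The cell cycle genes have a median of -1.36 with SAHA and -0.25 with the combination.

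Finally, the genes whose 3 differences from vehicle were nearest to those of Trp53 and of Mdm2 were sought by Euclidean distance on the log2 scale, among genes averaging 5 FPKM or more. Of 2681 genes compared, Rcc2 (distance 0.173), Cp (0.185) and Adh7 (0.223) were nearest to Trp53. Rcc2, a gene of chromosome segregation, was at 3.88 FPKM with the combination, 2.96 with SAHA, 17.9 with ATRA and 18.4 with vehicle. Cp encodes the copper protein ceruloplasmin and Adh7 an alcohol and retinol dehydrogenase, and both share their locus with another row. Nearest to Mdm2 were the ubiquitin ligase gene Ube3a (0.0432), the ERK phosphatase gene Dusp6 (0.0762) and the actin-regulating gene Wdr1 (0.0817), of 2682 compared. Dusp6 was at 12.2 FPKM with the combination, 12.5 with SAHA, 19.4 with ATRA and 19.9 with vehicle. With 4 libraries this likeness is a description of these values alone.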

How the data were processed

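The authors deposited FPKM values, 1 column for each of the 4 libraries, per the file headers. The submitters' processing notes name Trimmomatic 0.32, Cuffdiff and mm10. They give no aligner, gene annotation, strand setting or scaling across libraries. Differences were taken on log2(FPKM + 1), in Python 3.11.15 with pandas 2.3.3, over genes averaging 1 FPKM or more. A call needed a difference of 1 or more. Each group has 1 library, so nothing was tested.

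Alternatives were a pseudocount of 0.1 FPKM, no expression filter, a filter at 5 FPKM, median centring, rescaling to equal totals without small RNAs and the 10 highest rows, and a call at 1.5-fold. Transcript lengths for the depth estimate and gene spans came from GENCODE M21; 99.0% of 21698 loci overlapped those of the table. Fragment numbers of the members use the longest RefSeq-matched transcript of each gene, are estimates and carry no interval.

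The members and lists were chosen with earlier results of these data known. All members are given whatever their values. From each list, counted genes called in a comparison with vehicle were eligible, at most the 4 largest per comparison, beside a fixed set: Cdkn1a, Bax, Bbc3, Pmaip1, Ppm1d, Cdkn2a, Trp63, Trp73, Sesn2, Sesn3, Gadd45g, Ccng2, Btg1 and Wrap53. Likeness was measured on genes without a small RNA or predicted-gene name.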

Additional observations from a re-analysis of the deposited data

Results flagged for a closer look

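For 4 of the counted genes named here, the difference made by SAHA lay on opposite sides of 0 in the presence and in the absence of ATRA, at least 1 of both differences passed the 2-fold mark, and the combination departed from the sum of the single compounds by 1 or more on the log2 scale. With 1 library per group these differences were not tested. The rule was applied only to the members and named list genes, and the share of all counted genes that meet it was not counted. Of all counted genes, 4.69% departed from the sum upward by 1 or more and 1.73% downward. Gadd45a lay at 0.31 in the combination against ATRA and at -2.32 in SAHA against vehicle, a departure of 2.63. Aen lay at 0.30 and -1.01, a departure of 1.31. Aurka lay at 0.20 and -1.02, a departure of 1.22. Gadd45g, the third Gadd45 gene, lay at 1.04 and -0.13, a departure of 1.17. The SAHA library also stands apart in composition, with 59.5% of its FPKM in the 10 highest rows, against 46.4% to 47.2% in the others, and the part of this in the 4 departures was not tested. After the libraries were rescaled without small RNAs and those rows, Gadd45a departed by 2.36, Aen by 0.97, Aurka by 0.86 and Gadd45g by 0.85, the last 3 under the 2-fold mark. Gadd45g then lay at 0.97 in the combination against ATRA and at 0.12 in SAHA against vehicle, both on the same side of 0 and under the mark.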

How the results depend on the processing

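The calls on Trp53 and Gadd45a held under every alternative that was run on them. With SAHA, Trp53 lay between -3.01 and -2.17 and Gadd45a between -3.12 and -2.09 over the settings. Of 200 member differences recomputed, 190 stayed on the same side of the mark, 10 passed it anew and 0 called ones were lost or changed sign. The 10 that passed belong to Btg2, Zmat3 and Mdm2. Of the differences under the mark, 10 changed sign after median centring or rescaling, all of Sesn1, Gadd45b, Gadd45a, Mdm4 and Ccng1. The widest was Ccng1 in the combination against SAHA, at -0.33 in place of 0.28. With SAHA against vehicle the members called higher numbered 1 in place of 0 with a pseudocount of 0.1 FPKM, with rescaled libraries and with a call at 1.5-fold, each time Btg2. With the combination against vehicle 2 in place of 1 were called lower at 1.5-fold. The departure of Gadd45b was 1.01 with a pseudocount of 0.1 FPKM, in place of 0.69. Scaling bears most on the SAHA library: rescaling without small RNAs and the 10 highest rows moved the median of all counted genes to 0.21 in SAHA against vehicle, in place of -0.12, and to -0.33 in the combination against SAHA, in place of 0.14. Under it 124 counted genes were higher and 418 lower in the combination against SAHA, in place of 262 and 80, and 1455 were higher and 903 lower in SAHA against vehicle, in place of 679 and 1381. With a pseudocount of 0.1 FPKM 1099 counted genes were higher with SAHA than with vehicle, 1484 were higher with the combination than with vehicle, and 490 were higher and 185 lower in the combination against SAHA. At 1.5-fold, 1557 were higher and 2450 lower with SAHA and 2056 higher and 1967 lower with the combination, each against vehicle, where the 2-fold counts were 954 and 1089 for the combination. Among the 2958 genes averaging 5 FPKM or more, SAHA had 337 higher and 596 lower. Of 880 recomputed differences of listed genes, 806 stayed on their side of the mark, 45 passed it anew and 29 no longer did. Of these 880, 27 changed sign, and 0 of the 27 had been past the mark. No paired analysis was possible because each group has 1 library. Replicate error is unknown, and the depth of low genes was only estimated.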
